A study of Mus musculus with 400 samples.

Results

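Goblet-rich cells are the sorted Lgr5-high cells, taken from small intestinal crypts of mice, with the highest summed level of 4 goblet cell transcripts, Tff3, Agr2, Fcgbp and Muc2 (the gate genes). In each of 10 library sets, the kept cells were ranked by this sum in CPM (a gene's share of the counts of the cell, scaled to a total of 1000000), and the top 25% of the set was taken. This gave 90 goblet-rich cells, 9 in each set, of 380 kept cells and 400 cells in all. They were described against the lowest 50% of each set, 18 to 19 cells per set and 48.9% of the kept cells, called gate-low cells. The other 27.4% of the kept cells lay between the 2 classes. A class cut from a score is a range of values and not a cell type: 23 goblet-rich cells lay within 10% above the threshold of their set, and 21 other cells lay within 10% below it.

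All cells came from 1 sorted population. Crypts of the duodenum and jejunum of Lgr5 GFP/+ mice were dissociated and the cells sorted by flow cytometry, with DAPI to leave out dead cells. The mice carried the Lgr5::EGFP-IRES-Cre-ERT2 allele, in which a green fluorescent protein and an inducible recombinase are read from the Lgr5 locus, so that fluorescence follows the activity of 1 allele of a stem cell gene. Cells were captured on a microfluidic chip with 400 capture sites for cells of 10 to 17 µm, and polyadenylated RNA was amplified. The labels also name Cyp1a1::H2B-YFP mice and a tamoxifen dose for lineage tracing, and they tie neither to the cells described here. Ages are not given, and no animal is named for any cell, so the 380 cells count as 1 sample and no test between conditions exists. The SD given after a log2 ratio is that over the 10 library sets (n = 10). The labels do not say whether the sets differ in animal. This SD can therefore be read neither as technical spread alone nor as spread between animals.

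Goblet cells make the mucus of the gut. They fill their granules with the gel-forming mucin Muc2, which forms disulfide-linked networks and is heavily O-glycosylated on its way through the Golgi, and they co-secrete the trefoil peptide Tff3 and the Fc gamma binding protein Fcgbp. Agr2 is a disulfide isomerase of the endoplasmic reticulum needed to make the mucin. In the crypt, secretory cells arise from Lgr5 stem cells that escape Notch signalling and switch on the transcription factor Atoh1. Such cells display the Notch ligands Dll1 and Dll4 to their neighbours, and they give rise to goblet, Paneth and enteroendocrine cells under further factors such as Spdef and Gfi1.

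The promoter sequences of the gate genes are printed here because transcripts of the 4 genes were used together. Of the 6 genes looked up in the set of RefSeq promoter windows used here (GRCm38.p6), 3 had a window, Agr2, Fcgbp and Muc2. Tff3, Zg16 and Clca1 had none in that set, so their promoters are not printed. Each line gives the 250 bases before the annotated start, 5′ to 3′ on the strand of the gene, which is the plus strand for all 3, and capitals mark the matches named after the sequences.
Muc2, chr7:141690090-141690339: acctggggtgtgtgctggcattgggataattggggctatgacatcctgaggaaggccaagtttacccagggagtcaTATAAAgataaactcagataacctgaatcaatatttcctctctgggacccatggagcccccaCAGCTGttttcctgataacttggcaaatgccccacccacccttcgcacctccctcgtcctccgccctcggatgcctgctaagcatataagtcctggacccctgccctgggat
Fcgbp, chr7:28070986-28071235: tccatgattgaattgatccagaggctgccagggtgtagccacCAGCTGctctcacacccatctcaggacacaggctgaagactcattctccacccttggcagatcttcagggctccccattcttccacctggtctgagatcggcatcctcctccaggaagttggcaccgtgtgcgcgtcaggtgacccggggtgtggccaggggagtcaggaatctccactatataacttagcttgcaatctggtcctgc
Agr2, chr12:35992675-35992924: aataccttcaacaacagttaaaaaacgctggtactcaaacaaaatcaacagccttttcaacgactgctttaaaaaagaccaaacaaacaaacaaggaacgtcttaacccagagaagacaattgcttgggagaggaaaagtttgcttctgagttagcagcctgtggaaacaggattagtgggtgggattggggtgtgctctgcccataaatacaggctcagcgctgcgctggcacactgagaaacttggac

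The letters CAGCTG, an E-box that reads the same on both strands and belongs to the class bound by factors such as Atoh1, are in capitals in the middle of the Muc2 window and near the 5′ end of the Fcgbp window. The Muc2 window also held the TATA box letters TATAAA, searched on both strands, upstream of the E-box. The Agr2 window held neither of these, nor the E-box CAGATG or the forkhead motif TGTTTAC, both searched on either strand. None of these motifs overlaps another in the printed windows. CAGCTG was found in 4271 of 32851 promoter windows of the same length, in 9 of 30 windows of goblet list genes and in 1 of 15 windows of Paneth list genes. CAGATG was found in 14.4% of all windows, 5 of 30 goblet windows and 5 of 15 Paneth windows. TGTTTAC was found in 3.17%, 2 of 30 and 0 of 15, and TATAAA in 12.4%, 2 of 30 and 6 of 15. A match describes letters in a window, and no factor binding was measured.

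The cells were read at moderate depth and the 2 classes differed in it. Kept cells had 10766 counts or more, with a median of 32112. The median was 27373.5 counts and 8071 genes with a count in goblet-rich cells, against 33120.5 counts and 8752 genes in gate-low cells. The median mitochondrial share was 0.989% against 0.861%. Shares of cells with a count are therefore given after each cell was thinned to 19169 counts, which left out 16 goblet-rich cells and 9 gate-low cells. The 95% intervals of these shares are exact (Clopper-Pearson) and cover the sampling of cells only. Whether some counts came from RNA shared between cells was not tested. Transcripts of the Paneth defensin Defa24 were counted in every thinned gate-low cell. Doublets were not removed, and 5 of the 19 cells with the most genes were goblet-rich. The 10 sets used the same 40 barcode numbers, and 0 to 8 of the goblet-rich cells carried any 1 of them.

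2 library sets stand apart. In set 4 the goblet-rich cells had a mean gate value of 1625 CPM, against 868 CPM in the next highest set, and its gate-low cells had 315.5 CPM, against 160 CPM in the next. In set 5 the goblet list outside the gate summed to 716 CPM in goblet-rich cells and 742 CPM in gate-low cells, and the Paneth list to 1240 CPM and 1572 CPM, and no other set had the goblet-rich cells lower in either sum. Results that rest on set 4 are given with and without it.

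The gate values were skewed, with a few cells far above the others. Goblet-rich cells held a median of 514 CPM of the 4 gate genes (mean 691, from 227.7 to 3100 CPM), and gate-low cells a median of 99.4 CPM (mean 116.4, from 0 to 416 CPM). These values chose the cells and are given as a description. The last cell inside the threshold of its set had between 227.7 and 637 CPM (median over the sets 314.03), and the first cell outside between 220 and 636 CPM (median 297.1). The 90 goblet-rich cells held 51.4% of all gate counts in the kept cells. Of these cells, 28 had counts of all 4 gate genes, 44 of 3, 16 of 2 and 2 of only 1, and among gate-low cells 10 had counts of all 4 and 11 had none.

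**Figure D1:**
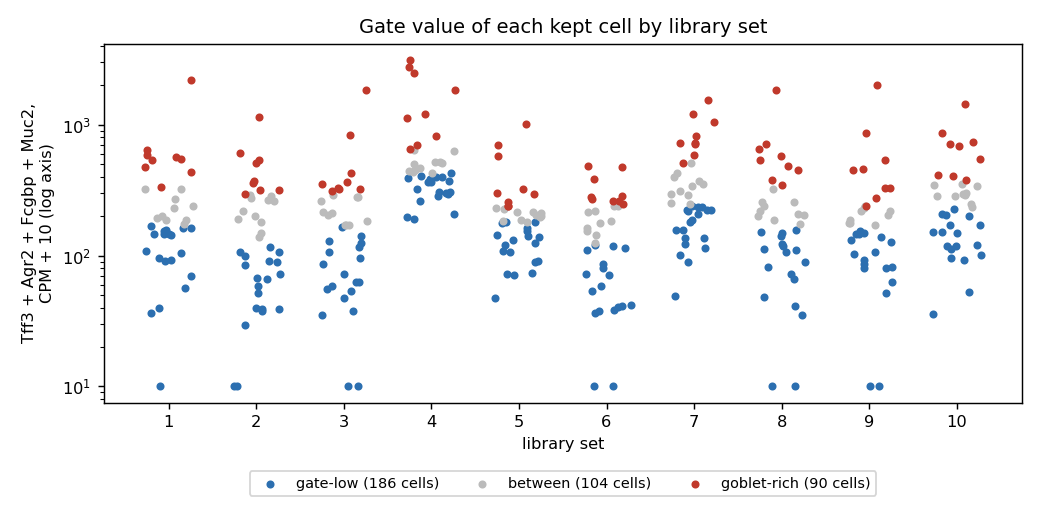
Gate value of each kept cell (summed CPM of Tff3, Agr2, Fcgbp and Muc2 plus 10, log axis) by library set, with goblet-rich cells in red, gate-low cells in blue and the cells between in grey. Set 4 has the highest mean of goblet-rich (1625 CPM) and of gate-low cells (315.5 CPM), and cells of 1000 CPM or more appear in 9 of the sets.

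Tff3 gave 43.9% of the summed gate value, Agr2 28.9%, Muc2 14.3% and Fcgbp 12.96%. Tff3 (chr17:31125306-31129646, minus strand, GRCm38) averaged 302.97 CPM in goblet-rich cells (median 234.5) and 53.3 CPM in gate-low cells (median 43.1). Agr2 (chr12:35992907-36004087, plus strand) averaged 199.4 CPM (median 149.2) against 38.6 CPM (median 28.5). The mucus protein gene Fcgbp (chr7:28071236-28120862, plus strand) averaged 89.5 CPM (median 41.97) against 14.3 CPM (median 0), and Muc2 (chr7:141690340-141754693, plus strand) 98.9 CPM (median 25.2) against 10.2 CPM (median 0). Muc2 was thus carried by part of the goblet-rich cells: 47 of 90 had any count of it, and the set means ran from 0 to 394.5 CPM, with a median of 83.8 CPM. Without set 4 the Muc2 means were 66.02 and 5.83 CPM.

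Of the 16 cells with 1000 CPM or more of the gate genes, 6 were in set 4. The highest, in set 4, had 3100 CPM, from 26 counts of Tff3, 29 of Agr2, 26 of Fcgbp and 23 of Muc2. The same cell had 31 counts of Spink4, 26 of Zg16, 15 of Clca1 and 13 of Reg4, which the gate did not use, beside 5 counts of Lgr5 and 5 of Mki67. The highest cell of set 9 had another makeup, with 21 counts of Tff3, 18 of Fcgbp, 2 of Agr2 and 1 of Muc2, and 0 counts of Clca1 and 2 of Zg16. Across the 16 cells the Lgr5 level had a median of 192.7 CPM and ran from 0 to 391.5 CPM.

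To ask whether the 4 transcripts occur together, each gate gene was set aside in turn and the cells were chosen by the other 3. The gene set aside was higher in the top 25% in 8 to 10 of the 10 sets. Tff3 averaged 231.9 CPM against 86.8 CPM, a log2 ratio of 1.41 (SD 0.57), higher in 10 of 10 sets. Agr2 averaged 157.9 CPM against 62.6 CPM, a log2 ratio of 1.32 (SD 1.04), higher in 9 sets and at -1.29 in set 5. Fcgbp averaged 76.6 CPM against 19.9 CPM (1.89, SD 1.37, 9 sets), and Muc2 87.7 CPM against 17.7 CPM (2.24, SD 1.66, 8 sets). Without set 4 the log2 ratios were 1.36, 1.19, 1.78 and 1.98 in the same order.

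At equal depth, Tff3 set aside was counted in 83.8% of cells in the top 25% (95% interval 73.4 to 91.3%) and 65.9% in the lowest 50% (58.4 to 72.9%). Agr2 was counted in 69.7% (58.1 to 79.8%) against 53.4% (45.7 to 61.03%), Fcgbp in 49.3% (37.4 to 61.3%) against 28.6% (22.01 to 35.9%), and Muc2 in 36.5% (25.6 to 48.5%) against 19.4% (13.8 to 26.1%). These intervals cover the sampling of cells only and leave out the spread between library sets. Whether they overlap is therefore not read as a test between the classes. Choosing by 3 genes kept 65 of the 90 cells when Tff3 was left out, 72 without Agr2, 78 without Fcgbp and 82 without Muc2.

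**Figure D2:**
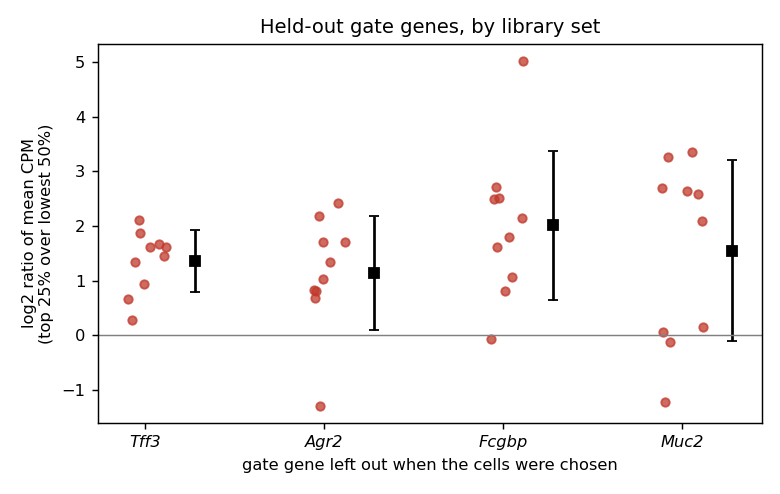
Log2 ratio of mean CPM of each gate gene between the top 25% and the lowest 50% of cells chosen by the other 3 gate genes. Circles are the 10 library sets and the square with its bar is their mean and SD, so the square differs from the ratio over all cells. Tff3 lies above 0 in all 10 sets and Muc2 in 8.

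Over all 13777 genes compared (those outside the gate with a mean of 10 CPM or more and counts in 10% or more of the kept cells), differences between the classes were few in the upward direction. The call used a ratio of mean CPM of at least 1.5, computed after adding 1 CPM to both means, with the same sign in at least 8 of the 10 sets. It gave 0.965% of the genes as higher and 3.29% as lower. The log2 ratio was above 0 for 6193 of the 13777 genes, with a median of -0.03. These counts describe 2 classes of cells of 1 sample, and the depth of the classes differs. Of the lower genes, 92.3% averaged under 50 CPM, against 77.4% of the higher genes and 56.9% of all genes compared. The filter on low values used all kept cells, so a rare gene could pass it through the goblet-rich cells alone. Outside the goblet-rich cells 12 of the genes called higher averaged under 10 CPM, among them Clca1, Guca2a, Hepacam2, Dll1, Cdkn1a and Nupr1, and the calls of these 12 follow in part from the filter. Of the genes named in the text, Notch1, Pdia3, Pdia6, Sec61a1, Sec62, Olfm4, Top2a and Axin2 have exons that overlap those of other annotated genes, which makes their counts uncertain.

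Some goblet genes outside the gate were higher in goblet-rich cells. Of 36 genes on the goblet list, 25 could be compared, 17 of them had a log2 ratio above 0, 7 were called higher and none lower, against 0.965% of all genes called higher. The median log2 ratio was 0.40, against -0.03 over all genes, and 9 of 10 sets had a median above 0 with an SD of 0.36 over the sets. Without set 4 the median was 0.25. The 7 genes called were Spink4, Zg16, Clca1, Reg4, Ccl6, Guca2a and Hepacam2. Clca1, Guca2a and Hepacam2 passed the filter only through the goblet-rich cells, so their calls, and the count of 7, are a description and no support for the list; the other 4 reached 10 CPM outside those cells too. Leaving out the 2 highest cells of each set lowered the list's median to 0.16.

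Spink4 (chr4:40920052-40931395, plus strand), a secreted protease inhibitor of goblet cells, was the most abundant of the 7. Its set means in goblet-rich cells ran from 111.4 to 688 CPM (median 395.2) and in gate-low cells from 93.8 to 248.7 CPM (median 176.4), so the ranges overlap. The mean over cells was 388.8 CPM against 169.2 CPM, a log2 ratio of 1.20 (SD 0.72), higher in 9 sets and lower in set 7. The transcript was widespread at equal depth, counted in 89.2% of goblet-rich and 88.1% of gate-low cells.

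Zg16 (chr7:127050156-127087328, minus strand), a lectin-like protein of the mucus granule, averaged 113.8 CPM in goblet-rich cells and 45.05 CPM in gate-low cells, a log2 ratio of 1.32 (SD 0.83). It was higher in all 10 sets, and without set 4 the means were 88.7 and 38.7 CPM. The set means ran from 22.9 to 340 CPM (median 56.5) against 22.6 to 101.1 CPM (median 38.2), so set by set the difference was smaller than the mean over cells shows. Single cells reached 904 CPM, while 31 of the 90 cells had no count.

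Clca1, a metalloprotease that processes mucus, was rare. It was counted in 21 of 90 goblet-rich cells and 15 gate-low cells, with 65 and 22 counts in all. The mean was 25.8 CPM against 5.41 CPM, a log2 ratio of 2.06 (SD 1.88), higher in 9 sets. Set 4 alone averaged 121.7 CPM, and without it the means were 15.1 and 5.71 CPM, a log2 ratio of 1.26. Guca2a, the gut hormone guanylin, averaged 45.4 CPM against 9.02 CPM (log2 2.21, SD 1.51, 8 sets). Its highest set mean was 280 CPM, and without set 4 the means were 19.3 and 6.01 CPM.

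Reg4, a secreted C-type lectin, averaged 102.8 CPM against 32.2 CPM (log2 1.64, SD 1.13). It was higher in 9 sets and lower in set 5, and leaving out set 4 hardly moved it (1.58). Ccl6, a chemokine, averaged 61.9 CPM against 17.2 CPM (log2 1.79, SD 1.49, 8 sets). Hepacam2, an adhesion protein of goblet and tuft cells, averaged 23.7 CPM against 5.83 CPM (log2 1.85, SD 1.49, 9 sets), and 1.31 on the log2 scale without set 4.

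Other genes on the goblet list did not follow. Rap1gap, a GTPase activator, averaged 14.1 CPM against 21.9 CPM (log2 -0.60, SD 1.54), lower in 7 sets, and Atp2c2, a Golgi calcium pump, 27.6 CPM against 36.5 CPM (log2 -0.39, SD 0.79), lower in 6. Neither was called. Retnlb, a resistin-like peptide of goblet cells, had 0 counts in the goblet-rich cells, which allows up to 1.16 CPM, and 2 counts in gate-low cells.

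The genes that direct secretory fate were sparse. Atoh1 (chr6:64729125-64731245, plus strand), the first switch of the secretory lineage, fell under the level needed for comparison: it had 33 counts in 13 of 90 goblet-rich cells and 16 counts in 10 gate-low cells. Its mean was 10.7 CPM against 2.54 CPM, and the ratio of summed counts over summed totals was 2.30 on the log2 scale (95% interval 1.40 to 3.26, counting error only). It was higher in 7 sets and lower in 1. Spdef, which promotes goblet maturation, had 26 counts against 49, and its log2 ratio of summed counts was 0.34 with an interval from -0.41 to 1.05, so no difference was detectable at this depth. Its means were 10.5 and 8.37 CPM, and 6.36 and 9.12 CPM without set 4, where the direction turned. Gfi1, an Atoh1 target, had 5 and 2 counts, and Bhlha15, a factor of secretory cells, 3 and 7.

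Foxa3, a forkhead factor of goblet cells, was called higher. It averaged 110 CPM against 58.3 CPM (median 62.7 against 32.3), a log2 ratio of 0.90 (SD 0.88), higher in 9 sets. Xbp1, a transcription factor of the unfolded protein response, averaged 127.7 CPM against 90.99 CPM (log2 0.48, SD 0.44), also higher in 9 sets but under the fold used for a call. Creb3l1 averaged 36.4 CPM against 17.1 CPM and was higher in 5 sets and lower in 5. Creb3l4, of the same family of membrane-bound factors, averaged 5.81 CPM against 17.4 CPM (log2 -1.43, SD 1.57) and was lower in 7 sets. Klf4, which promotes goblet differentiation, and Sox9, a factor of crypt base cells, had log2 ratios of 0.16 (SD 1.34) and -0.08 (SD 0.53). Of 18 secretory factors 9 could be compared, 7 of them above 0, 1 called higher and none lower, with a median log2 ratio of 0.32. Over all genes 0.965% were called higher.

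Among Notch genes 1 was called, the ligand Dll1 (chr17:15367354-15376872, minus strand), which passed the filter only through the goblet-rich cells and averaged 9.42 CPM in all other kept cells. It averaged 27.03 CPM against 9.17 CPM, a log2 ratio of 1.46 (SD 1.33), higher in 9 sets. It was counted in 25.7% of goblet-rich and 11.9% of gate-low cells at equal depth. Its exons overlap those of A930024N18Rik, and without a stated use of strand the counts of the 2 cannot be told apart. The ligand Dll4 had 14 counts against 24. The Notch target Hes1 averaged 406 CPM against 411 CPM (log2 -0.02, SD 0.15), and the receptor Notch1 107.7 CPM against 91.8 CPM (0.23, SD 0.56). Of 13 Notch genes compared, 7 were above 0 and none was called lower, with a median log2 ratio of 0.04. Over all genes 0.965% were called higher.

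The general machinery of secretion showed little difference. The chaperones and disulfide isomerases of the endoplasmic reticulum (36 genes compared) had a median log2 ratio of 0.08, with 21 above 0, 1 called higher and none lower, and the list's median was above 0 in 4 of 10 sets. The gene called was the oxidase Ero1lb, at 23.6 CPM against 12.1 CPM (0.91, SD 1.62), while 0.965% of all genes were called higher. The chaperone Hspa5 averaged 399.2 CPM against 369.02 CPM (0.11, SD 0.15), and the isomerases Pdia3, Pdia5 and Pdia6 had log2 ratios of -0.10 (SD 0.48), 0.25 (SD 1.77) and -0.04 (SD 0.39). Fkbp11, a prolyl isomerase, averaged 20.5 CPM against 8.14 CPM (1.24, SD 2.20) but was higher in only 5 sets. Ern2, the sensor of unfolded proteins in mucus-making cells, was too sparse to be compared. It had 41 counts against 22, a log2 ratio of summed counts of 2.15 (95% interval 1.37 to 2.97, counting error only). Its log2 ratio of mean CPM was 1.78, with an SD of 2.36 over the sets.

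Genes for entry into the endoplasmic reticulum (33 compared) had a median log2 ratio of -0.04 and none was called, though Sec61a1, the channel subunit, was higher in 9 sets at 152.2 CPM against 112.1 CPM (0.44, SD 0.35). Transport between endoplasmic reticulum and Golgi (33 compared) had a median of 0.02 and none called. Unfolded protein response genes (10 compared) had a median of 0.11 and none called. Of 22 O-glycosylation enzymes compared, 15 were above 0, with a median of 0.20 over all cells, though the list's median was below 0 in 7 of the 10 sets. None was called higher and 1 was called lower, the sialyltransferase St6galnac6 (6.85 CPM against 13.8 CPM, -0.91, SD 1.13), while 3.29% of all genes were called lower. St3gal3, another sialyltransferase, was higher in 9 sets at 115.5 CPM against 82.4 CPM (0.48, SD 0.43).

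**Figure D3:**
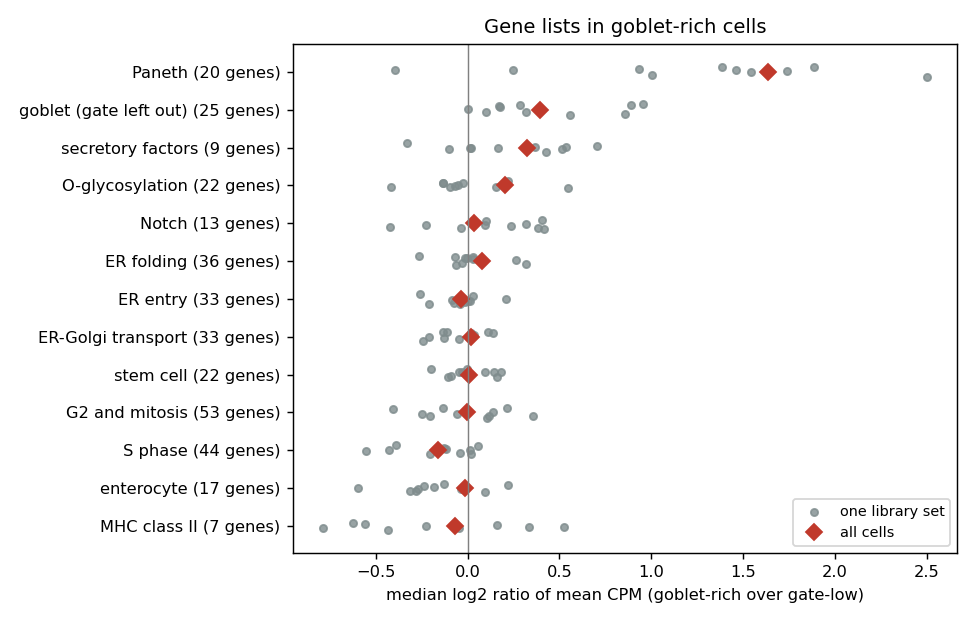
Median log2 ratio of mean CPM (goblet-rich over gate-low) of each gene list, with a circle for each library set and a diamond for all cells; the number of genes compared is in brackets. The Paneth list (1.64) and the goblet list (0.40) lie farthest to the right, and 1 set lies below 0 for the Paneth list.

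The Paneth list had the highest median ratio of the lists compared over all kept cells. Paneth cells are the other granule-bearing secretory cells of the crypt, which release antimicrobial defensins and lysozyme at the crypt base. Of 20 genes compared, 19 were above 0 and 13 were called higher, against 0.965% of all genes called higher. The median log2 ratio was 1.64, and 9 of 10 sets had a median above 0 (SD 0.83). This list median was 0.72 in thinned cells, 0.98 among cells with at least 20000 counts, 0.94 without the 2 highest cells of each set, 0.30 without the 10% of cells highest in Paneth transcripts and -0.056 without the top 25%, so the direction turned there. The summed level of the list had a median of 2424 CPM in goblet-rich cells (813 to 22251 CPM) and 1915 CPM in gate-low cells (672 to 7123 CPM), and means of 4058 and 2173 CPM. The medians over cells thus lay closer than the means, since a few goblet-rich cells held very high sums.

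Of the 20 genes with the largest ratio and the same sign in at least 9 sets, 12 were Paneth genes or defensins, 8 of them with a Defa symbol, and 3 were on the goblet list (Clca1, Hepacam2 and Reg4). The metalloprotease Mmp7, which activates defensins, averaged 93.9 CPM against 26.03 CPM (log2 1.81, SD 1.46, 9 sets), and its exons overlap those of AV064505. Lysozyme, Lyz1, averaged 374.6 CPM against 190.9 CPM (0.97, SD 0.82, 8 sets), with medians of 197.2 and 145.8 CPM. Defa28 averaged 91.5 CPM against 12.3 CPM (2.80, SD 1.68), and Defa24 808 CPM against 574 CPM (0.49, SD 0.33). Defensin genes are near-identical copies, and counts may have been split among them, so the value of any 1 of them is uncertain.

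Further leading genes were of mixed kind, and Nupr1 and Clps among them are on the Paneth list and counted with the Paneth genes above. Nupr1, a stress-responsive chromatin protein, averaged 46.02 CPM against 6.81 CPM (2.59, SD 1.23) and was higher in all 10 sets, as was the predicted gene Gm7849 (127.2 CPM against 40.2 CPM, 1.64, SD 0.63). Selenom, a selenoprotein of the endoplasmic reticulum, averaged 41.9 CPM against 10.0 CPM (1.96, SD 1.72), and the colipase Clps 82.2 CPM against 24.8 CPM (1.69, SD 1.09). Ypel3 averaged 44.7 CPM against 14.9 CPM (1.52, SD 1.82). Each of these 3 was higher in 9 sets.

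Goblet and Paneth transcripts were high in overlapping groups of cells. The top 25% of each set by the summed Paneth list, called Paneth-high cells, were 90 cells, of which 36 were goblet-rich, 40% of each group. Of the gate-low cells 32 (17.2%) were Paneth-high, and of all kept cells 23.7%. The number of goblet-rich and Paneth-high cells in 1 set ran from 1 to 6. The Paneth-high label is a rank within a set and not a fixed level. The summed list ran from 1754 to 22251 CPM in the 36 cells and from 813 to 4050 CPM in the other 54 goblet-rich cells. These 36 cells had a median of 22980 counts, the other 54 goblet-rich cells 31317.5 and the gate-low cells that were not Paneth-high 33577. Of the 16 cells with 1000 CPM or more of the gate genes, 8 were Paneth-high. This split was chosen after the values were seen, and what part 2 cells in 1 capture site, shared RNA or depth has in it was not tested.

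**Figure D4:**
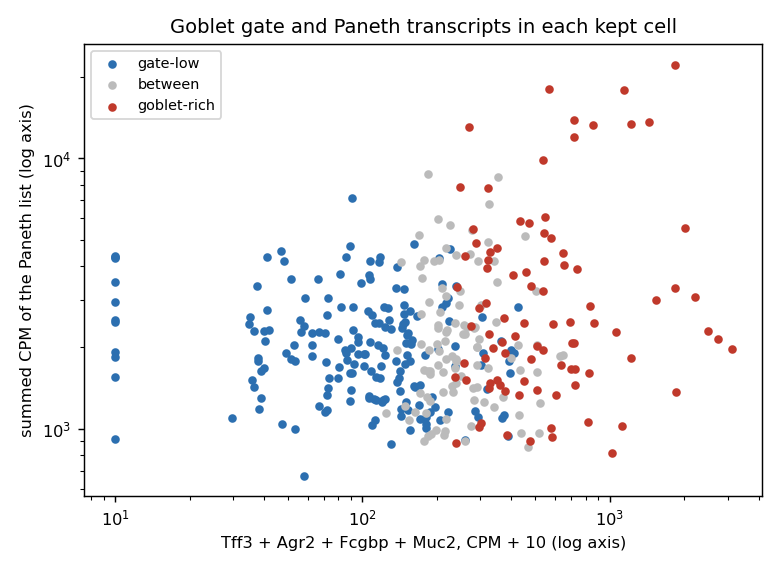
Summed CPM of the Paneth list against the gate value plus 10 CPM in each kept cell, both on log axes, with goblet-rich cells in red, gate-low cells in blue and the cells between in grey. The 9 cells with 10000 CPM or more of Paneth transcripts are all goblet-rich, while the 3 cells with the highest gate values have 1968 to 2298 CPM.

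Goblet genes differed in level between the 2 groups of goblet-rich cells. Spink4 averaged 638 CPM among the 36 Paneth-high cells and 222.6 CPM among the other 54, and the gate-low cells had 281.9 CPM where Paneth-high and 145.8 CPM elsewhere. Reg4 averaged 193.2 and 42.5 CPM, against 77.01 and 22.9 CPM, and Ccl6 131.4 and 15.5 CPM, against 49.17 and 10.6 CPM. Spink4, Reg4 and Ccl6 were thus highest where Paneth transcripts were high. Zg16 averaged 99.3 CPM among the 36 cells and 123.4 CPM among the other 54, against 51.2 and 43.8 CPM, and Clca1 17.5 and 31.3 CPM, against 17.3 and 2.95 CPM.

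Among cells that were not Paneth-high, the mucus genes named here and Atoh1 had higher means in goblet-rich than in gate-low cells. The median of the Paneth list was near level. The log2 ratio of mean CPM was 3.03 for Clca1 and 1.48 for Zg16, each higher in 8 of 10 sets, and 2.47 and 1.31 without set 4. Guca2a gave 3.28 and Dll1 1.67, each higher in 6 sets, and Spink4 0.61, higher in 9. Clca1, Guca2a and Dll1 passed the filter only through the goblet-rich cells, and Atoh1 did not pass it. The ratios of these genes are thus a description and no support for a difference. Of the 33 Atoh1 counts of goblet-rich cells, 32 lay in 12 of these 54 cells, at 17.2 CPM against 2.44 CPM (log2 2.40, higher in 7 sets), and 1 in the 36 Paneth-high cells. Xbp1 averaged 104.5 CPM against 94.1 CPM in these cells (log2 0.15) and was higher in 5 sets. The log2 ratios of the Paneth genes Lyz1, Ang4 and Mmp7 were 0.01, 0.08 and 0.40. Nupr1 gave 0.94 and Habp2 0.90, each higher in 6 sets, and Mptx2 gave -0.36 and Clps -0.18. Defa24, Defa17, Itln1 and Lyz2 lay between -0.10 and 0.04. The median of the Paneth list was -0.06. This list defined the split, so its level median follows in part from the choice of cells.

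The gate was also read in 4 steps: the lowest 25% of each set, the rest of the gate-low cells, the cells between and the goblet-rich cells. For goblet and Paneth genes the first 3 steps lay closer to each other than to the last. Spink4 averaged 169.7, 168.7, 190.6 and 388.8 CPM from the lowest step to the goblet-rich cells. Reg4 averaged 27.2, 37.0, 44.2 and 102.8 CPM, and Zg16 43.4, 46.6, 65.5 and 113.8 CPM. The Paneth list followed the same course with sums of 2293, 2059, 2438 and 4058 CPM. Lgr5 averaged 216.04, 215.9, 202.4 and 202.1 CPM.

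**Figure D5:**
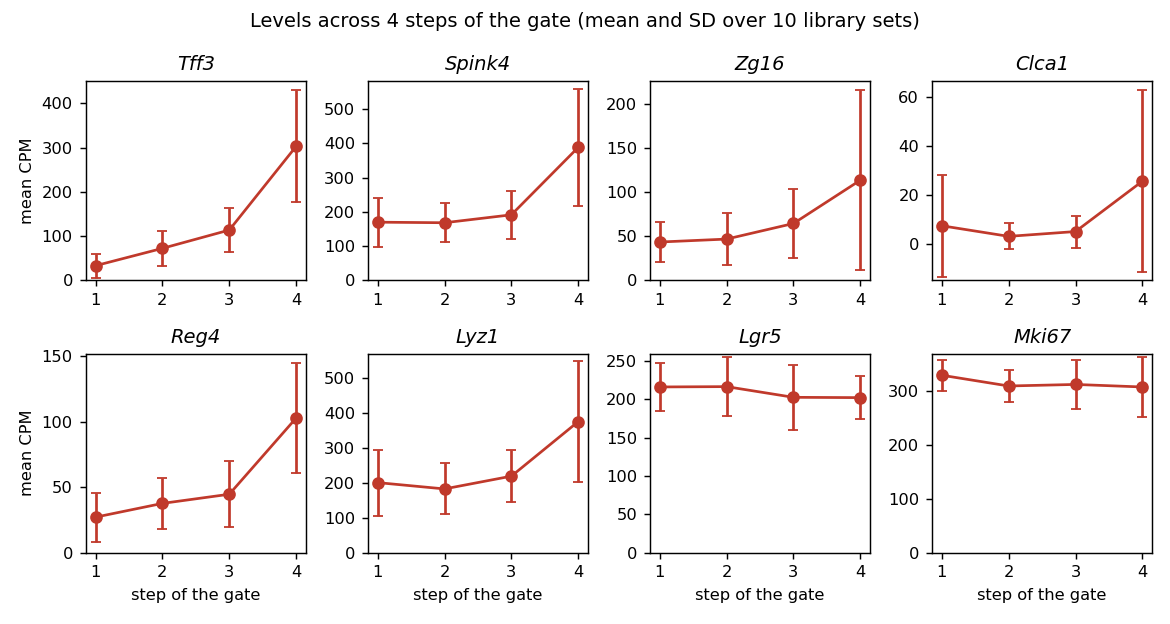
Mean CPM of 8 genes over 4 steps of the gate, from the lowest cells (1) to the goblet-rich cells (4); points and bars are the mean and SD of the 10 library sets. Spink4, Zg16, Clca1, Reg4 and Lyz1 are highest at step 4, while Lgr5 and Mki67 stay level; Tff3 is a gate gene.

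Stem cell transcripts were near the level of gate-low cells. Lgr5, the gene by which all cells were sorted, averaged 202.1 CPM against 215.96 CPM (log2 -0.10, SD 0.18) and was higher in 4 sets and lower in 6. Olfm4, a secreted stem cell marker, averaged 213.5 CPM against 190.9 CPM (0.16, SD 0.50), Smoc2 312.2 against 300.2 CPM, the Wnt-driven factor Ascl2 165.1 against 163.3 CPM, and the Wnt target Axin2 177.3 against 183.3 CPM. Of 22 stem cell genes compared, 12 were above 0, none was called, and the median log2 ratio was 0.01 (SD 0.13). The stem cell markers of the labelled cell type were thus detected in both classes.

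Genes of G2 and mitosis were also near level. The median of the S phase list lay a little below 0, by less than its SD over the sets. Mki67, a marker of cycling cells, averaged 307.9 CPM against 319.2 CPM (-0.05, SD 0.23), and the topoisomerase Top2a 462 CPM against 439 CPM (0.07, SD 0.13). The 53 G2 and mitosis genes had a median log2 ratio of -0.00, with 26 above 0 and none called. Of 44 S phase genes, 32 were below 0, 2 were called lower and none higher, with a median of -0.16, and the list's median was below 0 in 7 of 10 sets (SD 0.21). Over all genes 3.29% were called lower, and 6193 of 13777 lay above 0 with a median of -0.03. The 2 calls are not read as a result for the list. From the lowest step of the gate to the goblet-rich cells, the S phase list summed to 4244, 3817, 3930 and 3702 CPM. Chaf1b, a histone chaperone of replication, averaged 31.3 CPM against 54.7 CPM (-0.78, SD 1.75), Mcm3, of the replicative helicase, was the other gene called (-0.60), and Mcm2 of the same helicase averaged 53.5 CPM against 86.01 CPM (-0.67, SD 0.89) and was not called.

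Of 14 cell cycle brakes compared, 10 were below 0, with a median log2 ratio of -0.12. In this list 1 gene was called higher and 2 lower, against 0.965% and 3.29% of all genes. The inhibitor Cdkn1a, which also passed the filter only through the goblet-rich cells, was called higher at 21.2 CPM against 9.96 CPM (1.02, SD 1.66, 8 sets), counted in 27.03% against 9.60% of cells at equal depth, with exons that overlap AC167363.2. Cdkn2c (16.3 against 31.6 CPM, -0.91, SD 1.42) and Tob1 (29.7 against 45.3 CPM, -0.59, SD 0.50) were called lower. Cdkn1b averaged 57.3 CPM against 63.6 CPM (-0.15, SD 1.81). Mex3a, the RNA-binding protein in the title of the study, was too sparse to be compared: it had 37 counts in each class, at 15.2 CPM against 5.58 CPM, and a log2 ratio of summed counts of 1.25 (95% interval 0.56 to 1.95). It was higher in 6 sets and lower in 4, counted in 10.8% against 7.91% of cells at equal depth, and its exons overlap Mir1905.

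Markers of other cell types were mostly low or level. Of 17 enterocyte genes compared, 8 were above 0, with a median log2 ratio of -0.01, and the peptidase Mep1a was the 1 called (lower, 9.43 against 15.4 CPM). Tuft cell genes (5 compared) had a median of -0.04 and enteroendocrine genes (3 compared) -0.18, with none called. The whole enteroendocrine list, most of it too sparse to be compared, went the other way. It summed to a median of 77.8 CPM in goblet-rich cells and 48.8 CPM in gate-low cells (means 109.3 and 81.4 CPM). The immune list summed to a median of 37.6 CPM in goblet-rich cells and 35.2 CPM in gate-low cells, with the T cell genes Cd3d and Cd8a, the plasma cell gene Jchain and the leukocyte gene Coro1a at 0 counts in goblet-rich cells (up to 1.16 CPM each). The stromal list summed to a median of 24.6 CPM and 25.5 CPM, and epithelial genes (10 compared) had a median log2 ratio of 0.10. Dissociation stress genes (16 compared) had a median of -0.09, with Hspa1b the 1 called (lower, 33.5 against 56.8 CPM). Over all genes 3.29% were called lower.

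The 10 genes with the lowest ratios and the same sign in at least 9 sets ran from -1.83 to -1.40 on the log2 scale. None averaged over 23.1 CPM in either class, and they had 9 to 22 counts in goblet-rich cells and at least 74 in gate-low cells. They included Ddo, which oxidises D-aspartate, Tirap, an adaptor of Toll-like receptors, and predicted genes such as Gm38299 and Gm10822.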

How the data were processed

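The study holds 400 single cells of 1 sorted population. The authors deposited whole-number counts per gene and cell, not normalized, on build GRCm38.p4 (submitters' processing notes). Not given in the sources used here: aligner, counter, annotation, strand, molecular identifiers. The highest deposited count was 36, and an alternative mapped counts for saturation. Symbols and positions came from GENCODE M21 (33219 of 33496 identifiers matched). Cells with at least 10000 counts were kept, which left out 20. CPM, class means, log2 ratios with a pseudocount of 1 CPM and their SD over 10 library sets were computed with Python 3.11.15, numpy 2.4.6, pandas 2.3.3 and scipy 1.17.1, and the steps were tested on simulated data. With 1 sample, no test or p-value was made.

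Genes were named by rule: the gate genes, the 20 highest and 10 lowest ratios with the same sign in at least 9 sets, a written list of lineage, stem cell and cycle genes, and the 2 highest and 2 lowest compared genes of each list. This gave 143 genes, of which 38 overlap an exon of another gene. The cells, the genes named and the 24 lists were chosen with earlier results of these data known. Alternatives changed the pseudocount, filters, gate, comparison cells, depth and library sets.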

Additional observations from a re-analysis of the deposited data

Results flagged for a closer look

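Among 25 values checked over the 10 library sets, 4 had a set far from the others. For normally distributed values, chance alone gives such a set in about 1 in 20. The gate values are skewed, so this rate may not hold for them. The mean gate value of goblet-rich cells was highest in set 4 at 1625 CPM, with the nearest set at 868 CPM, and that of gate-low cells was highest in the same set at 315.5 CPM, with the nearest at 160 CPM. The log2 ratio of the gate gene Fcgbp was highest in set 2 at 5.35, with the nearest set at 3.19. The log2 ratio of Reg4 was lowest in set 5 at -1.32, with the nearest set at 1.14.

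The 20 cells left out for low totals, which enter no comparison, had a median gate value of 563 CPM (0 to 2032 CPM), against 192.6 CPM in kept cells. Their median total was 7780 counts, and 17 of the 20 had a gate count, with 99 gate counts in all. A count of 0 over these cells would have allowed up to 20.0 CPM.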

How the results depend on the processing

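Under 30 alternatives, 2 of them chosen after seeing the data (without Paneth-high cells, and without the 2 highest cells of each set), 28 of 300 values of gene shares and list medians moved beyond their margin and 1 reversed; of 4170 values of named genes, 34 moved and 5 reversed. The share of higher genes (0.965%) was 0.581% with a pseudocount of 10 CPM, 1.94% against the lowest 25% of cells, and 0.464% to 0.605% when a set was left out. The share of lower genes (3.29%) was 0.965% with that pseudocount, 2.70% (902 genes) without a filter on low values, 13.5% for the top 10% of cells, 2.17% without the 10% of cells highest in Paneth transcripts, and 1.71% to 2.28% when a set was left out. Leaving out a set requires the same sign in 8 of 9 sets in place of 8 of 10. Of the higher genes, only 44 were also called in thinned cells and 37 without Paneth-high cells, so most of the calls were lost in each of these settings. The goblet median of 0.40 was 0.79 for the top 10% and 0.16 without the 2 highest cells of each set. The Paneth median of 1.64 was 0.72 in thinned cells, 0.30 without the highest 10% and -0.056 without Paneth-high cells, where Defa28 (-0.069), Defa22 (-0.39), Mptx2 (-0.36), Clps (-0.18) and Gm7849 (-0.15) also reversed. Beyond the values whose construction is named, the cause was not tested. The medians of the secretory factors (0.15 to 0.53), stem cell genes (-0.05 to 0.11) and S phase genes (-0.26 to -0.05) stayed within their margin under each alternative. No paired analysis was possible because the cells form 1 group. Depth limits Atoh1, Gfi1, Spdef, Ern2 and Mex3a, each with under 50 counts in either class.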

Other observations

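The 3 enteroendocrine genes that could be compared all had log2 ratios below 0, with a median of -0.18, below 0 in 7 of 10 sets. The sum of the whole list was higher in goblet-rich cells, with a median of 77.8 CPM against 48.8 CPM. Hormone genes too sparse to be compared differed among themselves, and those named here were chosen after their values were seen. Sct, the hormone secretin, had 23 counts in 10 of 90 goblet-rich cells and 5 counts in 5 gate-low cells, at 8.06 CPM against 0.89 CPM, and at 3.77 CPM against 0.29 CPM without set 4. It was higher in 6 sets and lower in 0. The enteroendocrine granule gene Chga had 4 counts in goblet-rich cells and 15 in gate-low cells, and the mature enterocyte phosphatase Alpi 5 and 20.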
